A study of Mus musculus with 18 samples.

Results

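The smooth muscle contractile genes of the embryonic mouse lung were followed in mutants of *Wnt5a* and of *Vangl1* and *Vangl2*. The 10 genes were taken by symbol: *Acta2*, *Actg2*, *Myh11*, *Myl9*, *Tagln*, *Cnn1*, *Smtn*, *Lmod1*, *Des* and *Myocd*. They are 10 of 23420 genes listed in each experiment, and all 10 passed the filter on low values in all 3 experiments. No member passed the test across all genes at an adjusted p of 0.05 in any experiment. The 10 genes read lower in mutants of the mesenchymal *Wnt5a* deletion, with a median log2 fold change of -0.51. The median was -0.36 in *Vangl1/2* mutants and -0.035 in mutants of the epithelial *Wnt5a* deletion. In *Vangl1/2* lungs fold changes over all genes rose with transcript length (Spearman's rho 0.716), and with that trend removed the median was -0.24.

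Airway smooth muscle forms from mesenchymal cells next to the growing epithelial tubes and wraps around the bronchi. Its cells build thin filaments of smooth muscle actin and thick filaments of smooth muscle myosin, together with proteins that regulate or anchor them. Many of these genes are switched on by serum response factor (SRF), which binds a short DNA element called the CArG box and works with the cofactor myocardin. The same genes are active in vascular smooth muscle, and several are also active in the embryonic heart, so they do not by themselves mark the airway.

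Whole-lung RNA was sequenced in 3 experiments of 3 control and 3 mutant libraries each, 18 libraries in all, to ask which molecular changes go with the branching defects of lungs that lack planar cell polarity signals. In the *Vangl1/2* experiment, controls were Vangl1-/- and mutants were Vangl1-/-; Vangl2-/- at E12.5dpc (days post coitum), so that both groups lacked *Vangl1* (a gene trap allele) and the mutants had also lost *Vangl2* in all tissues through *Sox2-Cre*. In the Dermo1Cre experiment, controls were Wnt5af/+; Dermo1Cre and mutants were Wnt5af/f; Dermo1Cre at E12.5dpc; *Dermo1-Cre* acts in the mesenchyme, and controls carried the same Cre and 1 floxed allele. In the Sox9Cre experiment, controls were Wnt5af/+; Sox9Cre and mutants were Wnt5af/f; Sox9Cre at E13.5dpc; *Sox9-Cre* was used to delete *Wnt5a* in the epithelium. The sources used here do not say how many embryos went into a library, so p-values measure the spread between libraries. In whole-lung RNA, fewer cells of a type and less RNA per cell cannot be told apart.

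Each library held between 15945393 and 19814346 reads on genes, and all values are normalized counts, that is, reads divided by a size factor of the library. *Vangl2* read 277, 406 and 334 in controls and 86.5, 79.8 and 89.6 in *Vangl1/2* mutants (log2 fold change -1.96, limma adjusted p = 0.032), and it was the 1 gene called in that experiment. *Vangl1* read 162, 219 and 113 in those controls and 239, 274 and 242 in the mutants (log2 fold change 0.65, adjusted p = 0.233). *Wnt5a* read 472, 430 and 489 in Dermo1Cre controls and 317, 436 and 230 in mutants (log2 fold change -0.55, adjusted p = 0.406). It read 473, 453 and 426 in Sox9Cre controls and 442, 362 and 448 in mutants (log2 fold change -0.12, adjusted p = 1). Neither *Wnt5a* contrast passed the test in whole-lung RNA. The tissue markers of lung were present throughout. The sums lay between 11770 and 13705 for the lung epithelium list, which includes *Nkx2-1* and *Sftpc*. They lay between 23718 and 51781 for the lung mesenchyme list, which includes *Foxf1*, *Tbx4* and *Col1a1*. In the libraries with its lowest and highest sum, Vangl1-/- control replicates 3 and 2, *Col1a1* alone read 9293 and 35260, and *Foxf1* read 3816 and 3129. The mesenchyme sum thus largely follows *Col1a1*. Several of the list sums, though not all, are given beside the results of each experiment.

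The CArG box shows how the SRF cofactor is thought to reach these genes, and the promoter windows that hold it are shown for that reason. Windows from 250 bases before to 50 after each RefSeq start (build GRCm38.p6, the same assembly as mm10) were given for 6 of the 10 genes: *Acta2*, *Myl9*, *Cnn1*, *Des*, *Lmod1* and *Smtn*. The box was searched as CC, then 6 bases that are A or T, then GG, which reads the same on both strands. In a looser search, 1 of the 6 middle bases could be any base. The capitals mark the box, and each stretch is 30 bases long on the strand of the gene.
*Acta2* first box, chr19:34255438-34255467, minus strand: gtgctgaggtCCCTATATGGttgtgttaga
*Acta2* second box, chr19:34255388-34255417, minus strand: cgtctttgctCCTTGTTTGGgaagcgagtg
*Myl9* first box, chr2:156775293-156775322, plus strand: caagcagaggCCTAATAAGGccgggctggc
*Myl9* second box, chr2:156775355-156775384, plus strand: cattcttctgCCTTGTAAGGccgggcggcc

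The boxes of *Acta2* start at positions -84 and -34 from the RefSeq start, 50 bases apart, and each has 5 A or T bases among the middle 6. Both stretches overlap an annotated GENCODE exon and lie within the GENCODE bounds of *Acta2* (chr19:34241090-34255590). The gene and transcript of that exon were not recorded. The boxes of *Myl9* start at -161 and -99, 62 bases apart, and lie in no annotated exon; the first is an exact box with 6 of 6. Of 32851 promoter windows of all genes, 1.63% held an exact box, 9.98% held a box with the looser search and 0.822% held at least 2 boxes. Of the 6 member windows, 1 held an exact box and 2 held a box with the looser search, both of these with 2 boxes. The windows of *Cnn1*, *Des*, *Lmod1* and *Smtn* held no match, which says only that these letters are not in these 300 bases.

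Per kilobase of the longest transcript, the order of the 10 genes in controls was nearly the same in all experiments. *Acta2* came first at 2853 ± 458 normalized counts per kilobase in the Vangl1-/- controls, 3578 ± 496 in the Dermo1Cre controls and 3171 ± 237 in the Sox9Cre controls (SD, n = 3 each). *Myl9* came second at 2285 ± 384, 2123 ± 741 and 2235 ± 390. The control ranges of these 2 genes overlapped in the Vangl1-/- controls and not in the others. *Actg2* came next in each, between 943 and 989, followed by *Tagln* between 684 and 840, with overlapping ranges in both E12.5dpc control groups. *Smtn* was next, between 537 and 580. *Des* and *Myh11* took the next places in either order, at 327 to 381 and 227 to 389. *Cnn1* followed at 161 to 194. *Myocd*, the cofactor, lay far lower at 37.0 to 58.0 and *Lmod1* lowest at 17.1 to 27.0, and the ranges of these 2 genes did not overlap in any control group. The 3 tables were normalized separately, so levels across them are set side by side and not tested.

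**Figure D1:**
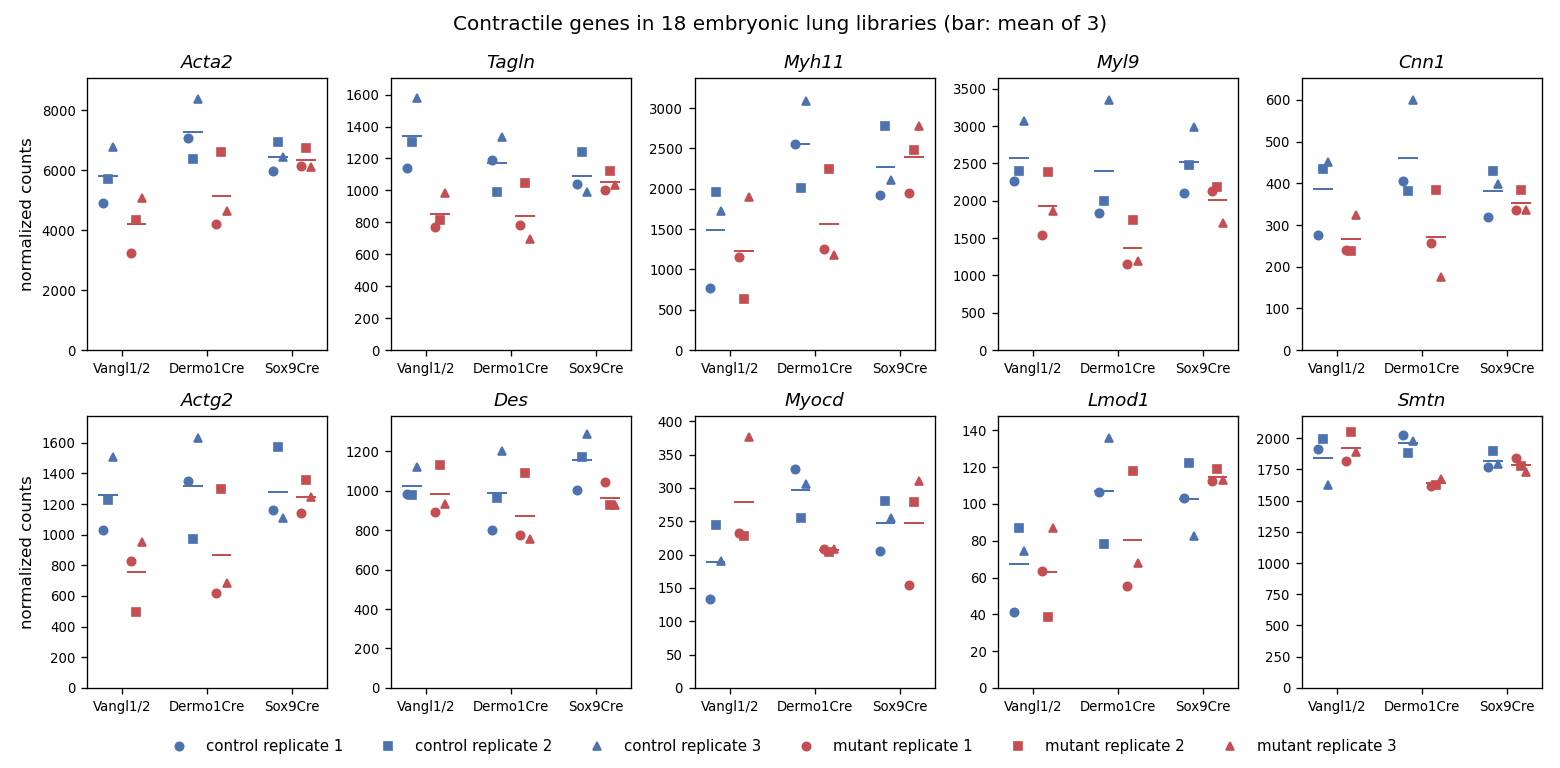
Normalized counts (vertical axes from 0) of the 10 genes in every library, with controls in blue, mutants in red, a marker shape for each replicate number and a bar at the mean of 3 libraries. In Dermo1Cre lungs the square of mutant replicate 2 lies above the other mutants for 8 of the 10 genes, and the triangle of control replicate 3 lies above the other controls for the same number.

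The first comparison removed *Wnt5a* with *Dermo1-Cre*, that is, in the mesenchyme from which smooth muscle forms. All 10 genes had a log2 fold change below 0 in Dermo1Cre mutants, with a median of -0.51 against 0.0007 over all genes tested. None passed the test (limma, smallest adjusted p = 0.162), where 0.0140% of 14277 genes did. At an unadjusted p under 0.05, 8 of the 10 were lower and 0 higher, where 4.76% of all genes were lower and 5.42% higher. In 3 of the 10, every mutant library lay below every control library, where 7.92% of all genes did so. The genes vary together between libraries, as given further on, so these counts are not 10 separate observations.

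*Acta2* (chr19:34241090-34255590, minus strand, NCBI gene 11475) encodes smooth muscle alpha-actin, the main thin filament protein. It read 7085, 6385 and 8376 normalized counts in Dermo1Cre controls and 4212, 6603 and 4628 in mutants. Mutant replicate 2 lay above the lowest control, so the groups overlap, and the mutant mean was 70.7% of the control mean. The log2 fold change was -0.52 (95% interval -0.86 to -0.18, unadjusted p = 0.00697, adjusted p = 0.334). Of its 50-base windows, 0.352% are shared with actin genes or pseudogenes elsewhere, so few of its reads could have been split. *Actg2* (chr6:83512905-83536265, minus strand), the gamma-actin of enteric and other smooth muscle, read 1349, 974 and 1632 in controls and 621, 1298 and 683 in mutants. Here too mutant replicate 2 stood among the controls, and the log2 fold change was -0.65 (95% interval -1.24 to -0.066, adjusted p = 0.464).

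The 2 myosin genes gave differences of similar size. *Myh11* (chr16:14194535-14291372, minus strand) encodes the smooth muscle myosin heavy chain, the most specific marker of the lineage among the members. It read 2557, 2008 and 3086 in controls and 1256, 2249 and 1185 in mutants, so that 2 mutants lay well under all controls and the other one stood between them. Its log2 fold change was -0.75 (95% interval -1.26 to -0.24, adjusted p = 0.351), and 0.4% of its 50-base windows are shared with the non-muscle genes *Myh9* and *Myh10*. *Myl9* (chr2:156775420-156781658, plus strand) encodes the regulatory light chain whose phosphorylation starts contraction. It read 1836, 1993 and 3356 in controls and 1159, 1746 and 1192 in mutants, with no overlap and a mutant mean of 57.0% of controls. Its log2 fold change was -0.78 (95% interval -1.27 to -0.29, adjusted p = 0.323). Without control replicate 3, the highest *Myl9* library, it was -0.51.

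Of the proteins that bind thin filaments, *Cnn1* (calponin, chr9:22099216-22109630, plus strand) had a log2 fold change close to that of *Myl9*. It read 405, 381 and 600 in controls and 257, 384 and 175 in mutants, at a log2 fold change of -0.81 (95% interval -1.38 to -0.23, adjusted p = 0.375), and at -0.52 without mutant replicate 3. *Tagln* (transgelin or SM22, chr9:45929619-45936058, minus strand) read 1188, 989 and 1335 in controls and 783, 1048 and 696 in mutants, at -0.49 (95% interval -0.81 to -0.16, adjusted p = 0.351). In both genes mutant replicate 2 stood above the lowest control. *Lmod1* (leiomodin, which nucleates actin filaments, chr1:135324807-135368065, plus strand) read 106, 78.3 and 136 in controls and 55.5, 118 and 67.9 in mutants. Its log2 fold change of -0.44 had an interval that included 0 (-1.08 to 0.19, unadjusted p = 0.151), and it ranged from -0.75 without mutant replicate 2 to -0.22 without mutant replicate 1.

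*Smtn* and *Myocd* behaved differently from the filament genes in that the 3 mutant libraries were close to each other. *Smtn* (smoothelin, a cytoskeletal protein of contractile smooth muscle, chr11:3517523-3540612, minus strand) read 2029, 1881 and 1981 in controls and 1620, 1626 and 1677 in mutants. The groups did not overlap, and the log2 fold change was small and tight, -0.26 (95% interval -0.36 to -0.16, adjusted p = 0.162). It was the 1 member that DESeq2 called on the recovered reads (adjusted p = 0.00819), where DESeq2 called 0.161% of genes as lower. *Myocd* (chr11:65176561-65269989, minus strand) read 329, 255 and 306 in controls and 209, 204 and 209 in mutants. These groups did not overlap either, at a log2 fold change of -0.51 (95% interval -0.74 to -0.27, limma adjusted p = 0.189, DESeq2 adjusted p = 0.053). *Des* (desmin, the muscle intermediate filament, chr1:75360329-75368579, plus strand) read 802, 962 and 1204 in controls and 778, 1091 and 753 in mutants. Its log2 fold change of -0.18 had an interval from -0.54 to 0.18, and ranged from -0.35 without mutant replicate 2 to -0.028 without control replicate 3.

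**Figure D2:**
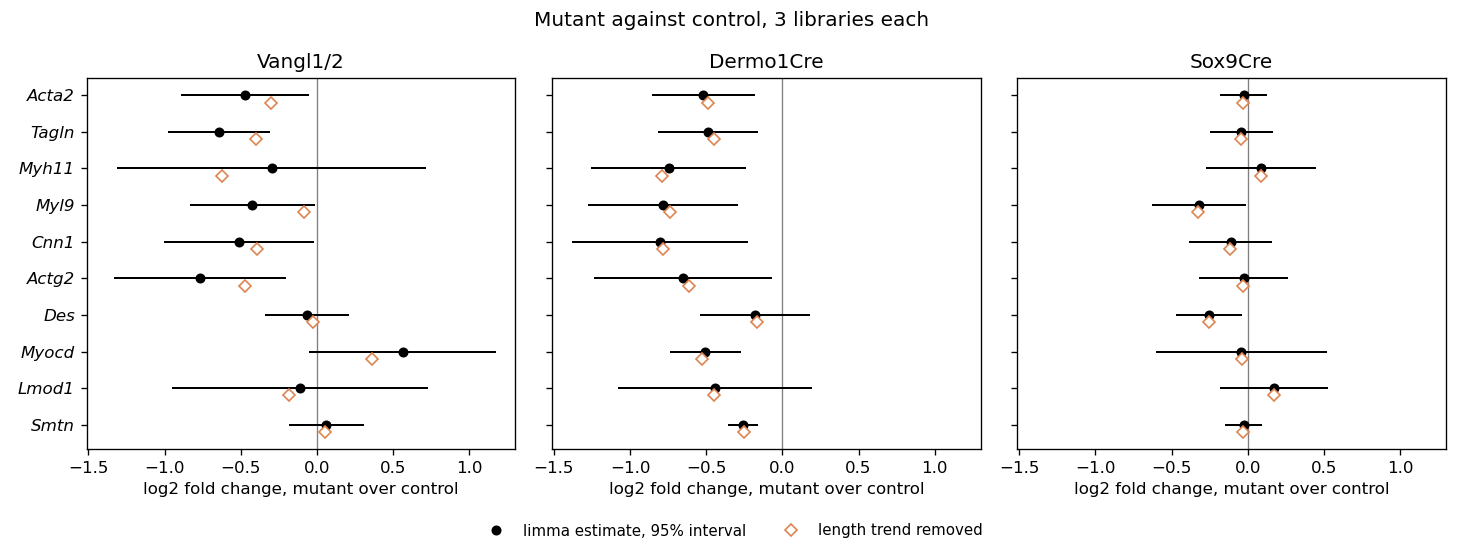
Log2 fold change of each member, mutant over control (horizontal axis), in the 3 experiments, with black points and lines for the limma estimate and its 95% interval and open diamonds for the estimate after a trend with transcript length was removed. All 10 points lie below 0 in Dermo1Cre lungs, 8 of 10 lie below 0 in *Vangl1/2* lungs, where the diamonds of the short transcripts *Myl9*, *Actg2* and *Tagln* sit closer to 0, and most points in Sox9Cre lungs are near 0.

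The libraries within each Dermo1Cre group were not alike. Mutant replicate 2 was the highest mutant for 8 of the 10 genes, all except *Myocd* and *Smtn*, and control replicate 3 was the highest control for the same 8. *Wnt5a* read 436 in mutant replicate 2, above 430 in control replicate 2, against 317 and 230 in the other mutants. The same 2 libraries held RNA of other tissues. The skeletal muscle list of 10 genes summed to 97, 119 and 954 in controls and to 164, 2119 and 161 in mutants. Within it, *Myog* read 57.5 in control replicate 3 and 226 in mutant replicate 2, and at most 9.03 in the other 4 libraries. The foregut and stomach list of 6 genes summed to 153, 176 and 423 in controls and to 250, 481 and 208 in mutants. *Krt5*, a keratin of stratified and tracheal basal epithelium, read 118 in control replicate 3 and 87.3 in mutant replicate 2, and at most 3.03 in the others.

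Mutant replicate 2 was the highest mutant for 8 of the 10 genes, so leaving it out had to lower the mutant mean of those genes. Without it, all 10 genes were lower at an unadjusted p under 0.05, where 6.17% of all genes were, and the median was -0.73. None was called at an adjusted p under 0.05, where 0.0283% of genes were called as lower. Without both control replicate 3 and mutant replicate 2, a choice made after these values were seen that leaves 2 libraries a group, the median was -0.59. In that fit 9 of 10 were lower at an unadjusted p under 0.05 (5.70% of all genes), all but *Des*. It called 3 members, *Acta2* (-0.61, adjusted p = 0.00711), *Myh11* (-0.89, adjusted p = 0.00818) and *Myl9* (-0.70, adjusted p = 0.00304), where 0.0715% of genes were called as lower. Without the 2 libraries that carry skeletal muscle and *Krt5* RNA, the log2 fold changes lay farther from 0 for all members except *Myl9* (-0.70 against -0.78), *Myocd* (-0.47 against -0.51) and *Smtn* (-0.25 against -0.26). The same 2 libraries were the highest of their groups for 8 of the 10 genes. Leaving them out had to narrow the range of those genes within each group, so these calls are no separate support. The part of *Wnt5a* level in the value of mutant replicate 2 was not tested. The pericyte and vascular smooth muscle list of 8 genes summed to between 9009 and 9801 in controls and between 8641 and 8774 in mutants, with 2 of 8 lower at an unadjusted p under 0.05. The lung epithelium list summed to between 12979 and 13705 in controls and between 12199 and 12473 in mutants, also without overlap, with 4 of 6 genes lower at an unadjusted p under 0.05 and a median log2 fold change of -0.11. The lung mesenchyme list summed to between 39863 and 48144 in controls and between 35442 and 40700 in mutants, with 3 of 6 lower and a median of -0.072. Most of that sum was *Col1a1*, at 25670, 28910 and 34580 in controls and 23210, 26750 and 21860 in mutants. The part of these cell types in the members' values was not tested.

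The next comparison removed *Vangl2*, a membrane protein of planar cell polarity, on the Vangl1-/- background. The paper reports no apparent smooth muscle defect in lungs of this mutant genotype by immunostaining at a later stage, which reads protein and not RNA. None of the 10 genes passed the test (smallest adjusted p = 0.233), where 0.00699% of 14303 genes did. The median log2 fold change was -0.36 against -0.0093 over all genes. At an unadjusted p under 0.05, 5 of the 10 were lower and 0 higher, where 8.56% of all genes were lower and 12.0% higher. In 2 of the 10, *Tagln* and *Actg2*, every mutant lay below every control, where 8.68% of all genes did so. The count of 5 went to 2 without control replicate 3 or without mutant replicate 1, and to 3 without mutant replicate 2. Over all genes, in either direction, 2938 were under 0.05 in the full fit, and 1055, 1436 and 1525 in these fits. The member count was 5 without control replicate 1 (762 over all genes) and 4 without mutant replicate 3 (1100). It was 5 without control replicate 2 (7206), with *Myocd* among them as higher.

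Markers of other cell types were summed in the same libraries. The mesothelium list summed to between 2758 and 4044 in controls and between 3874 and 6263 in mutants. Of its 5 tested genes, 3 were higher at an unadjusted p under 0.05, with a median log2 fold change of 0.50, or 0.65 with a trend on transcript length removed. The pericyte and vascular smooth muscle list summed to between 6705 and 10050 in controls and between 9341 and 9808 in mutants, with 2 of 8 higher and a median of 0.20, or -0.024 with that trend removed. Of the 6 lung mesenchyme genes 2 were higher and 1 lower. The skeletal muscle list summed to between 86 and 171 in controls and between 43 and 104 in mutants. Its 2 tested genes were both lower at an unadjusted p under 0.05, with a median of -1.10, or -0.75 with that trend removed. Their part in the members' values was not tested.

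Both actins had negative log2 fold changes in *Vangl1/2* mutants. *Acta2* read 4924, 5709 and 6782 in controls and 3234, 4332 and 5086 in mutants, overlapping in 1 library, at a log2 fold change of -0.47 (95% interval -0.89 to -0.054, adjusted p = 0.233), and at -0.29 without mutant replicate 1. *Actg2* read 1033, 1228 and 1510 in controls and 825, 495 and 953 in mutants, without overlap, at -0.77 (95% interval -1.33 to -0.20, adjusted p = 0.233), and at -0.49 without mutant replicate 2. *Tagln* was the most separated member. It read 1140, 1303 and 1576 in controls and 769, 813 and 981 in mutants, at -0.64 (95% interval -0.98 to -0.31, unadjusted p = 0.00223, adjusted p = 0.233). *Cnn1* read 277, 433 and 451 in controls and 240, 237 and 325 in mutants, at -0.51 (95% interval -1.01 to -0.019). *Myl9* read 2264, 2397 and 3071 in controls and 1544, 2392 and 1861 in mutants, at -0.43 (95% interval -0.84 to -0.016), and at -0.28 without mutant replicate 1. Its second mutant library stood level with the controls.

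The remaining genes of this experiment spread widely or did not differ by more than their spread. *Myh11* read 772, 1965 and 1720 in controls and 1157, 640 and 1894 in mutants, with full overlap and a log2 fold change of -0.30 (95% interval -1.32 to 0.72). *Lmod1* followed the same libraries, with 41.3, 86.7 and 74.6 in controls and 63.4, 38.4 and 86.7 in mutants, at -0.11 (95% interval -0.95 to 0.73). *Des* lay between 978 and 1120 in controls and between 893 and 1132 in mutants. *Smtn* lay between 1623 and 1991 in controls and between 1814 and 2051 in mutants. *Myocd* had the opposite sign to the filament genes. It read 133, 244 and 190 in controls and 232, 229 and 376 in mutants, at 0.56 (95% interval -0.051 to 1.17, unadjusted p = 0.0674, adjusted p = 0.262), with 1 control above 2 mutants. Without control replicate 1 or without mutant replicate 3 it was at 0.33.

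Transcript length moved with this comparison. Over 14183 genes, the log2 fold change in *Vangl1/2* lungs correlated with transcript length (Spearman's rho 0.716, a description across genes, which are not independent replicates). The values were 0.25 in Dermo1Cre lungs and -0.034 in Sox9Cre lungs. The 5 members with an unadjusted p under 0.05 were the 5 with the shortest transcripts, from *Myl9* at 1128 bases to *Cnn1* at 2381, while *Myocd* has 5114 and *Myh11* 6549. Each library's deviation from the mean correlated with length at -0.67, 0.38 and -0.625 in control replicates 1 to 3 and between 0.476 and 0.604 in mutants. Control replicate 2 thus lay on the side of the mutants. With the length trend removed from each library, the median of the 10 was -0.24, and 1 gene, *Tagln* (-0.40, unadjusted p = 0.0284), remained below 0.05, where 4.53% of all genes were lower. *Acta2* then gave -0.30, *Actg2* -0.47, *Cnn1* -0.40, *Myl9* -0.087, *Myocd* 0.36 and *Myh11* -0.63, none with an unadjusted p under 0.05.

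Without control replicate 2, 5 members were called, *Acta2*, *Actg2*, *Tagln* and *Myl9* as lower and *Myocd* as higher (0.77, adjusted p = 0.0216). In the same fit 22.0% of all genes were called as lower and 21.7% as higher. With the length trend also removed, a combination added after the data were seen, none of the 10 was called where 11.5% of all genes were, and the median was -0.14. In the Dermo1Cre and Sox9Cre experiments, removing the length trend left the median at -0.51 and -0.037.

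The last comparison removed *Wnt5a* with *Sox9-Cre*, that is, in the epithelium that the muscle surrounds. At E13.5dpc, 10 members gave 0 calls (limma, smallest adjusted p = 1), where 0% of 14293 genes were called; DESeq2 and edgeR called 0 members too. The median was -0.035 against 0.0013 over all genes. At an unadjusted p under 0.05, 2 of the 10 were lower and 0 higher, where 2.81% of all genes were lower and 1.08% higher. In 0 of the 10 did every mutant lie below every control, where 4.36% of all genes did so. *Acta2* read 5983, 6946 and 6430 in controls and 6155, 6748 and 6101 in mutants, at -0.025 (95% interval -0.18 to 0.13). *Myh11* read 1918, 2777 and 2104 in controls and 1947, 2476 and 2774 in mutants, at 0.085 (95% interval -0.27 to 0.44). *Tagln* lay between 992 and 1243 in controls and between 1005 and 1124 in mutants, and *Actg2* between 1110 and 1569 and between 1140 and 1355.

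These intervals were narrow enough to limit the size of a difference between the genotypes. *Wnt5a* itself, as given above, did not pass the test in the same libraries, so they do not bound the effect of a measured loss of *Wnt5a* RNA. For 7 of the 10 genes the whole 95% interval lay within 0.5 of 0 on the log2 scale, all except *Myl9*, *Myocd* and *Lmod1*. *Myocd* read 205, 281 and 254 in controls and 155, 279 and 311 in mutants (95% interval -0.60 to 0.52). *Lmod1* read 103, 122 and 82.8 in controls and 112, 119 and 113 in mutants (0.17, 95% interval -0.18 to 0.53). *Cnn1* lay between 319 and 430 in controls and between 336 and 383 in mutants, and *Smtn* between 1766 and 1897 and between 1726 and 1844. The 2 genes with an unadjusted p under 0.05 were *Myl9* and *Des*. *Myl9* read 2105, 2477 and 2982 in controls and 2131, 2190 and 1705 in mutants (-0.32, unadjusted p = 0.042, adjusted p = 1). *Des* read 1005, 1170 and 1286 in controls and 1042, 926 and 927 in mutants (-0.25, unadjusted p = 0.0274, adjusted p = 1). In both genes the groups overlapped, with mutant replicate 1 above the lowest control. The mesothelium list summed to between 3416 and 4027 in controls and between 2746 and 3400 in mutants, with 3 of 6 genes lower at an unadjusted p under 0.05, and its part in these values was not tested.

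**Figure D3:**
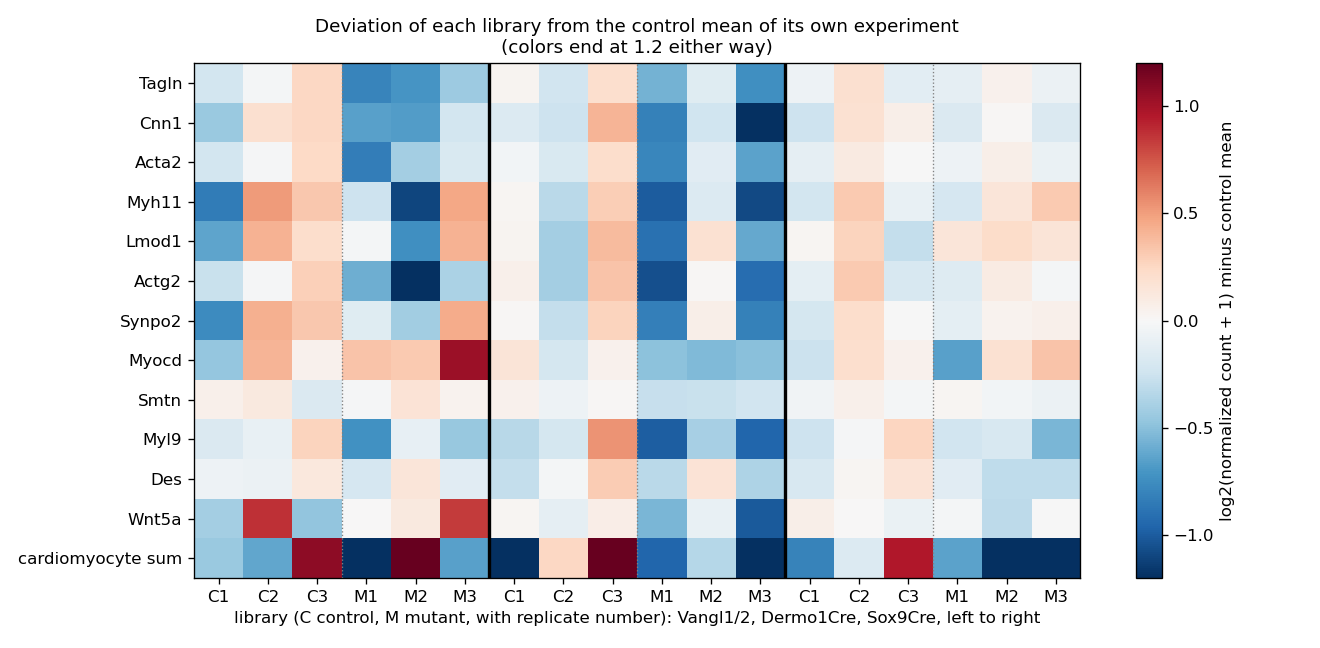
Difference of log2(normalized count + 1) from the control mean of the same experiment for each gene (rows) and library (columns, C control and M mutant), with *Synpo2*, *Wnt5a* and the summed cardiomyocyte markers for comparison. *Tagln*, *Cnn1*, *Acta2*, *Myh11*, *Lmod1*, *Actg2* and *Synpo2* largely vary together, and *Myl9* and *Des* largely follow the cardiomyocyte sum. In the *Vangl1/2* columns the highest control is replicate 2 for *Myh11* and *Lmod1*, and replicate 3 for *Tagln*, *Cnn1*, *Acta2* and *Actg2*.

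*Myl9* and *Des* stood apart from the other members by a second measure, their correlation with the RNA of heart muscle over all 18 libraries. The 16 genes of the cardiomyocyte list, with *Myh6* and *Nppa* among them, summed to very unequal values across libraries. The sums were 2182, 1936 and 6266 in Vangl1-/- controls and 659, 8746 and 1892 in their mutants. They were 1499, 7636 and 23137 in Dermo1Cre controls and 3318, 5079 and 1028 in mutants. They were 6179, 9600 and 20917 in Sox9Cre controls and 6891, 3182 and 1138 in mutants. In the Sox9Cre experiment 13 of the 16 cardiomyocyte genes were lower at an unadjusted p under 0.05. No gene of the list was at 0 in every library. The *Vangl1/2* mutant library whose *Myl9* stood level with the controls, at 2392, was the one with a sum of 8746.

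Over the 18 libraries, with each value centred on its own group, *Myl9* correlated with the cardiomyocyte sum at Pearson's r 0.867 and Spearman's rho 0.845, and *Des* at 0.859 and 0.814. Without the 2 libraries farthest from the median sum, r was 0.84 and 0.814. Within the *Vangl1/2*, Dermo1Cre and Sox9Cre experiments, r was 0.975, 0.809 and 0.878 for *Myl9* and 0.973, 0.873 and 0.799 for *Des*. In Dermo1Cre lungs this was not particular to heart markers. There *Myl9* and *Des* gave 0.966 and 0.963 with the skeletal muscle sum and 0.984 and 0.958 with the foregut and stomach sum. They gave 0.956 and 0.983 with the lung mesenchyme sum, most of which is *Col1a1*. In the *Vangl1/2* and Sox9Cre experiments their r with those 3 sums lay between -0.599 and 0.673. With the cardiomyocyte sum over the 18 libraries, r of the other 8 members lay between -0.257 for *Myocd* and 0.493 for *Acta2*. Within single experiments it lay between -0.559 (*Myocd*, Sox9Cre) and 0.752 (*Cnn1*, Dermo1Cre, where *Myl9* gave 0.809). These are descriptions over libraries that share a group mean, with 6 libraries in each experiment, and the part of heart RNA in the *Myl9* and *Des* differences was not tested. With control replicate 3, the library with the highest cardiomyocyte sum, left out, *Myl9* in Dermo1Cre lungs was at -0.51 and *Des* at -0.028. Control replicate 2 still had a cardiomyocyte sum of 7636 there, against at most 5079 in mutants, so the sums remained uneven. In Sox9Cre lungs, *Myl9* without control replicate 3 was at -0.19 and *Des* at -0.17, with unadjusted p of 0.158 and 0.109.

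**Figure D4:**
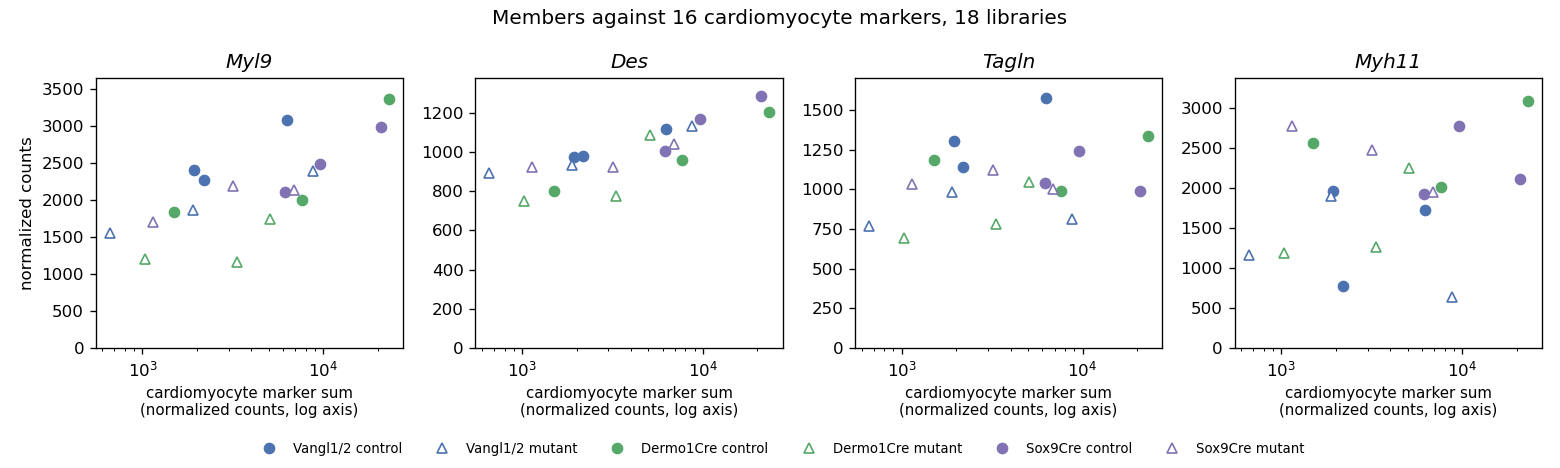
Normalized counts of *Myl9*, *Des*, *Tagln* and *Myh11* (vertical axes from 0) against the sum of 16 cardiomyocyte markers (horizontal log axis) in 18 libraries, with filled circles for controls, open triangles for mutants and a color for each experiment. *Myl9* and *Des* read higher where the sum is higher, with group-centred r of 0.867 and 0.859, against 0.331 for *Tagln* and -0.080 for *Myh11*.

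The members otherwise fell into a group that varied together and a few that did not. Each gene's deviation from its own group mean was set against the mean deviation of the other 9 over the 18 libraries, as a description. *Cnn1* gave r 0.906, *Tagln* 0.901, *Lmod1* 0.849, *Myh11* 0.846, *Actg2* 0.838 and *Acta2* 0.834. *Myocd* gave 0.502, *Myl9* 0.472 and *Des* 0.431. *Smtn* gave -0.161, so its level was unrelated to that of the filament genes within groups, although it lay lower in all Dermo1Cre mutants. The filament genes thus shared a library-to-library variation that *Smtn* did not have.

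Of 13970 other genes tested in all experiments, the 5 most like the mean profile of the members over the 18 libraries were *Synpo2* (r 0.958), *Chrdl1* (0.884), *Psd* (0.864), *P4ha3* (0.861) and *Gal3st3* (0.858). *Synpo2* encodes synaptopodin 2 or myopodin, an actin-binding protein of muscle, and *Chrdl1* encodes a secreted antagonist of BMP. For *Synpo2* r was 0.981, 0.982 and 0.967 in the *Vangl1/2*, Dermo1Cre and Sox9Cre experiments. *Synpo2* read 563, 460 and 675 in Dermo1Cre controls and 316, 588 and 319 in mutants (-0.52, adjusted p = 0.488), with mutant replicate 2 again among the controls. The last 3 genes of the 5 were less alike in Sox9Cre lungs, between 0.506 and 0.591.

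The mean profile of the members was also set against the 8 marker sums, as a description over the 6 libraries of each experiment. In the *Vangl1/2*, Dermo1Cre and Sox9Cre experiments its r was -0.566, -0.438 and -0.314 with the mesothelium sum and 0.171, 0.206 and 0.738 with the pericyte and vascular smooth muscle sum, of 1 sign throughout for each list. For other lists the sign differed between experiments. Its r with the foregut and stomach sum was 0.906 in Dermo1Cre lungs, 0.699 in *Vangl1/2* lungs and -0.929 in Sox9Cre lungs. In Sox9Cre lungs *Krt5* read 141 in control replicate 1 and 110 in mutant replicate 1, and at most 4.99 in the other 4 libraries. Those 2 libraries were the lowest of their groups for 7 and 6 of the 10 members. The skeletal muscle sum gave 0.959 in Dermo1Cre and -0.771 in Sox9Cre lungs, with 6 libraries behind each value.

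The other genes of smooth muscle contraction and its control were counted from fixed lists, and no gene of them passed the test in any experiment. Shares of all genes at an unadjusted p under 0.05 belong beside the counts here and below. In *Vangl1/2* mutants 8.56% were lower and 12.0% higher. The shares were 4.76% and 5.42% in Dermo1Cre mutants and 2.81% and 1.08% in Sox9Cre mutants. Among 17 further contractile and anchoring genes, 8 were lower and 1 higher at an unadjusted p under 0.05 in Dermo1Cre mutants, with a median of -0.19. The smallest p-values there belonged to *Csrp1*, a LIM protein of smooth muscle (-0.24, adjusted p = 0.162), *Pdlim7* (-0.21, adjusted p = 0.269) and *Cald1*, or caldesmon (-0.15, adjusted p = 0.329). *Csrp1* read 4994, 5189 and 5007 in controls and 4124, 4492 and 4239 in mutants, without overlap. In *Vangl1/2* mutants 3 of the 17 were higher and 3 lower, with a median of 0.16 and of -0.010 with the length trend removed. *Tpm2*, a tropomyosin (-0.36), *Ppp1r12a*, a subunit of myosin phosphatase (0.49), and *Pdlim7* (-0.27) had the smallest p-values, all with an adjusted p of 0.233. In Sox9Cre mutants 2 were lower, *Tpm1* (-0.16) and *Pdlim3* (-0.37).

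Of 9 genes for SRF, its cofactors and regulators, 4 were lower and 0 higher at an unadjusted p under 0.05 in Dermo1Cre mutants, with a median of -0.19. *Srf* itself read 2192, 2304 and 2231 in controls and 1827, 1916 and 2149 in mutants without overlap (-0.19, adjusted p = 0.356). *Tgfb1i1*, or Hic-5, gave -0.32 (adjusted p = 0.375) and *Mkl1*, a myocardin-related cofactor, -0.13 (adjusted p = 0.481). In *Vangl1/2* mutants *Mkl2* was higher (0.68, and 0.24 with the length trend removed) and *Csrp2* lower (-0.42, and -0.14), both with an adjusted p of 0.233. In Sox9Cre mutants *Gata6* alone was below an unadjusted p of 0.05 (-0.20, adjusted p = 1).

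The non-muscle relatives of the members were counted in the same way. Of 17 non-muscle actin, myosin and related genes, 6 were lower and 0 higher at an unadjusted p under 0.05 in Dermo1Cre mutants, with a median of -0.096. *Actb*, or beta-actin, gave -0.16 and *Myh9*, a non-muscle myosin heavy chain, -0.13. In *Vangl1/2* mutants 3 were higher and 4 lower, where 12.0% and 8.56% of all genes were. *Myh10* gave 0.54 there and *Myh9* 0.47, and 0.13 and 0.078 with the length trend removed. In Sox9Cre mutants 0 of the 17 were below 0.05.

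Of 8 signal genes that act on airway smooth muscle formation, 3 were higher at an unadjusted p under 0.05 in *Vangl1/2* mutants, where 12.0% of all genes were. *Fgf10*, the mesenchymal growth factor whose expressing cells include smooth muscle progenitors, gave 0.64, the hedgehog receptor *Ptch1* 0.77 and *Fgf9*, an epithelial and mesothelial factor, 0.66, all with an adjusted p of 0.233. With the length trend removed they gave 0.55, 0.37 and 0.63. The mesothelium list, as given above, also had 3 genes higher in these mutants at an unadjusted p under 0.05, and its part in the *Fgf9* value was not tested. In Dermo1Cre mutants 1 was higher, *Fgf9* (0.34, adjusted p = 0.391), and in Sox9Cre mutants 1, the hedgehog target *Gli1* (0.23, adjusted p = 1). *Gli1* read 1581, 1645 and 1551 in Sox9Cre controls and 1860, 1892 and 1831 in mutants, without overlap. Of 5 tested immediate early genes, 0, 1 and 1 were lower at an unadjusted p under 0.05 in the *Vangl1/2*, Dermo1Cre and Sox9Cre mutants.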

How the data were processed

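Whole embryonic lungs were profiled by bulk RNA-Seq in 18 libraries, grouped by the genotype and stage in the labels. Per the submitters' processing notes the authors used Trim Galore, HISAT2, featureCounts and DESeq2 with mm10; versions and strandedness are not given in the sources used here. The deposited values are a signal: the authors scaled each gene count by the size factor of its library (0.9516 to 1.0731). Every value was a whole multiple of 1 read to within 3.7e-05 reads, so reads could be recovered. The deposited columns of means, log2 fold changes and p-values of the authors' own comparison were not used.

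Each experiment was fitted alone with limma (version 3.58.1, R 4.3.3) with a mean-variance trend on log2(value + 1), keeping genes that reached 10 normalized counts in 3 or more of the 6 libraries. Fold changes on this scale understate those of low genes. P-values were adjusted by Benjamini-Hochberg over all genes tested, with a threshold of 0.05. An exact permutation test of 1 gene, 3 libraries against 3, cannot go below p = 0.1. Alternatives were edgeR (4.0.16) and DESeq2 (1.42.0) on recovered reads, other pseudocounts, no filter, TMM, a per-library loess trend on transcript length removed (GENCODE M21 lengths for 98.3% of names), the replicate block and leaving out libraries. The script was tested on simulated data. No 2 replicates agreed within sampling noise (at least 3.73 chi-square per gene for each pair).

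The members, lists and tests were chosen with earlier results of these data known. All 10 members are named, with at most 3 genes of smallest p per list and experiment, the 5 genes most like the members' mean profile, and the targeted genes. The lists of marker genes were summed per library. Marker genes named singly were chosen after their values were seen. Of the list genes, *Mkl1* and *Mkl2* are the names in the tables for Mrtfa and Mrtfb. RefSeq promoter windows of 300 bases were used for 6 members.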

Additional observations from a re-analysis of the deposited data

Results flagged for a closer look

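*Myocd* lay above the control mean in all 3 *Vangl1/2* mutant libraries, at a log2 fold change of 0.56, and below it in all 3 Dermo1Cre mutant libraries, at -0.51. No other member gave such opposite values in 2 experiments. The difference between the experiments was not tested, since the tables were normalized separately and the control genotypes differ. Neither value passed the test within its experiment, and with the length trend removed they were 0.36 and -0.53. Leaving out 1 library gave 0.33 to 0.77 in *Vangl1/2* lungs, the lowest without control replicate 1 or mutant replicate 3, and -0.61 to -0.43 in Dermo1Cre lungs. Within groups, *Myocd* correlated with the pericyte and vascular smooth muscle sum at r 0.501, 0.854 and 0.954 in the *Vangl1/2*, Dermo1Cre and Sox9Cre experiments, each over 6 libraries and given as a description. With the endothelium sum its r was 0.641, 0.665 and 0.487. Over the 18 libraries together r was 0.470 with the pericyte and vascular smooth muscle sum and 0.538 with the endothelium sum. Its r with the foregut and stomach sum was 0.855, 0.042 and -0.867 in the same order of experiments. The length trend was not removed from these values. Of the 8 pericyte and vascular smooth muscle genes, 2 were higher in *Vangl1/2* mutants at an unadjusted p under 0.05, where 12.0% of all genes were. Their median there was -0.024 with the length trend removed. In Dermo1Cre mutants 2 were lower, where 4.76% of all genes were. The part of these cell types in the *Myocd* values was not tested.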

How the results depend on the processing

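No member was called in any experiment with edgeR, other pseudocounts, no filter, TMM scaling, the length trend removed or the replicate block, and the signs of the 3 medians were the same in all of these. DESeq2 called 1 member in Dermo1Cre lungs, *Smtn*. Over all genes it called 20, 100 and 9 in the *Vangl1/2*, Dermo1Cre and Sox9Cre experiments, where limma called 1, 2 and 0. Leaving out 1 library gave 0 to 5 members called in *Vangl1/2* lungs (5 without control replicate 2) and 0 in the other experiments. The medians ranged from -0.55 to -0.22 in *Vangl1/2* lungs, from -0.73 to -0.45 in Dermo1Cre lungs and from -0.088 to 0.042 in Sox9Cre lungs, above 0 without control replicate 2. Without control replicate 3 and mutant replicate 2, the highest libraries of their groups for 8 members, 3 members were called in Dermo1Cre lungs. With the length trend removed and control replicate 2 left out, 0 members were called in *Vangl1/2* lungs, the median was -0.14, and *Lmod1* (0.007) and *Myl9* (0.014) changed sign. The cause of these shifts was not tested.

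Signs of single members also turned when 1 library was left out. In *Vangl1/2* lungs the log2 fold changes ranged from -0.17 to 0.004 for *Des*, from -0.43 to 0.20 for *Lmod1*, from -0.72 to 0.10 for *Myh11* and from -0.027 to 0.12 for *Smtn*. In Sox9Cre lungs they ranged from -0.079 to 0.029 for *Acta2*, from -0.12 to 0.13 for *Actg2*, from -0.027 to 0.24 for *Myh11*, from -0.23 to 0.26 for *Myocd*, from -0.052 to 0.003 for *Smtn* and from -0.11 to 0.055 for *Tagln*. Without 1 library, *Vangl1/2* values also ranged from -0.62 to -0.29 for *Acta2*, from -0.96 to -0.49 for *Actg2* and from -0.59 to -0.28 for *Myl9*. *Myocd* in Sox9Cre lungs was also at 0.004 with edgeR and 0.006 with DESeq2. All 10 members kept a negative sign in Dermo1Cre lungs under every alternative run.

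The labels give the same replicate numbers to controls and mutants, but the numbers were not treated as pairs. Deviations of same-numbered libraries correlated between -0.223 and 0.303, above 0.1 in 2 of 9 pairs. Of the 9 control libraries, 2 were most like the mutant library of their own number. With the replicate block, 0 members were called and the medians were -0.36, -0.51 and -0.035 in the *Vangl1/2*, Dermo1Cre and Sox9Cre experiments. *Lmod1*, at 38.4 to 136 normalized counts, is the member where depth limits precision most.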
